A study of Mus musculus with 4 samples.

Results

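The genes described here encode the proteins of the mitochondrial ribosome, taken as every gene on the array whose name begins with Mrpl or Mrps followed by a number. There were 76 of them among 36161 gene names on the array, 47 named for the large subunit (Mrpl) and 29 for the small subunit (Mrps). The choice used names only and no measured value. They lie on 17 chromosomes.

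Total RNA of whole liver was compared between microsomic mice, which weigh less than the 10th percentile at birth, and control littermates of normal birth weight, in both sexes. All 4 samples carry the labels C57BL/6J and embryonic day 20, whereas the methods of the study describe newborn C57BL/6 N mice. The groups were microsomic females (MF), control females (CF), microsomic males (MM) and control males (CM), with 1 array each, and the sources used here do not say whether the RNA of an array was pooled. No treatment or allele distinguished the groups. Differences between a pair of arrays therefore have no replicate check, and no p-value is given for them.

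Mitochondria keep a ribosome of their own, which makes only the membrane proteins encoded by mitochondrial DNA, all of them subunits of the respiratory chain and of ATP synthase. Its RNAs are transcribed in the mitochondrion, while all of its proteins are encoded in the nucleus, made in the cytoplasm and imported, so that both genomes have to supply matching amounts. Part of the proteins have counterparts in bacteria and part are found in mitochondria only. The liver around birth is rich in mitochondria and takes up oxidation of milk fat.

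Levels are log2 signals relative to the 75th percentile of the array, and a gene is represented by its brightest probe of 60 bases. Of the 76 genes, 75 gave a signal well above background throughout, 46 of the large and 29 of the small subunit, and none of their spots was saturated or flagged as an outlier. Mrpl21 was the exception. Its probe was not well above background on any array, so no difference is given for it. Of the 75, 58 lay above the 75th percentile of the 19303 genes that reached this on every array, and their middle 50% lay between 2.57 and 3.75. The 1811 other genes in this range are called genes of the same brightness below, and serve as the comparison. The brightest probes were those of Mrpl2, Mrpl4 and Mrpl20 and the dimmest those of Mrpl35, Mrps27 and Mrpl1, although probe brightness does not rank the amounts of different mRNAs.

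Stretches upstream of the transcription start are shown for 7 of the genes, because the members share short motifs there that the name rule did not use. They were read from the RefSeq promoter table (build GRCm38.p6), which holds 250 bases before and 50 bases after the start and contained 67 of the 76 genes. Capitals mark the letters CCGGAAG, the core bound by ETS factors such as GABP, AAGATGGC, bound by YY1, or GCGCATGC, bound by NRF-1, on either strand. Each stretch is written 5′ to 3′ along the gene.
Mrps22 (chr9:98601680-98601709, minus strand, ETS core): tgcacaaaaacctctcgagCCGGAAGttgc
Mrpl3 (chr9:105053237-105053266, plus strand, ETS core): ttgagaaacggaCCGGAAGtggcccggctg
Mrps18a (chr17:46110966-46110995, plus strand, ETS core): cacacccctgctCCGGAAGcggaagtgcac
Mrps16 (chr14:20393547-20393576, minus strand, ETS core): cttgggggcgctCTTCCGGgcttcaggctc
Mrpl36 (chr13:73330968-73330997, plus strand, YY1 core): cgtgaccttacGCCATCTTtcttcctggcg
Mrps18b (chr17:35916645-35916674, minus strand, NRF-1 core): aacggcccgacGCATGCGCactgggagcac
Mrpl10 (chr11:97041437-97041466, plus strand, NRF-1 core): cccagctccacGCATGCGCatagcggccct

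The ETS letters were present in the window of 24 of the 67 genes (35.8%), against 9.93% of all 27025 genes in the table. The YY1 letters were found in 12 (17.9%, all genes 3.19%) and the NRF-1 letters in 8 (11.9%, all genes 3.05%). At least 1 of the 3 was present in 36 of the 67. The GC box GGGCGG was found in 33 (49.3%, all genes 38.2%) and the letters CCAAT in 27 (40.3%, all genes 41.1%). All 5 were searched on both strands. A match is a description of the letters and not a bound site. In MF vs CF the measured genes with the ETS letters had a median difference of -0.30 (n = 23) and those without it -0.38 (n = 43). With and without the YY1 letters the medians were -0.38 and -0.31, and for the NRF-1 letters -0.31 and -0.37. For the GC box they were -0.37 and -0.30, and for CCAAT -0.43 (n = 27) and -0.19 (n = 39). These splits were not tested.

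Most genes of the mitochondrial ribosome were lower on the MF array than on the other arrays. In MF vs CF the median log2 difference of the 75 genes was -0.36, with 57 negative and 18 positive, while the median was -0.08 for genes of the same brightness and -0.08 for all genes. More than 1.5-fold lower in MF were 19 of the 75 (25.3%), against 21.2% of all genes compared, and more than 1.5-fold higher were 5 (6.67%), against 19.9%. Of genes of the same brightness, 18.9% were lower and 18.2% higher. The downward share was thus near that of all genes and somewhat above that of genes of the same brightness. The upward share was below both, and the median was displaced. The median difference depends on the scaling, since without any scaling it was 0.046 while that of all genes was 0.32, with 4 genes lower and 15 higher.

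In MM vs CM the direction was the other way and the size smaller. The median was 0.13, with 52 of 75 positive, against 0.11 for genes of the same brightness and -0.03 for all genes, but -0.089 with normexp background correction and quantile normalization. More than 1.5-fold higher in MM were 8 of the 75, against 17.7% of all genes, and 2 were lower, against 24.6%. Among genes of the same brightness the shares were 14.9% higher and 9.39% lower. In males the 75 genes were therefore displaced from all genes but hardly from genes of the same brightness, the gap being 0.02 compared with -0.27 in females. That gap takes in members outside the brightness range. The 37 members within it had medians of 0.24 in MM vs CM and -0.43 in MF vs CF, against 0.11 and -0.08 for genes of the same brightness. Whether the difference between the sexes exceeds the spread between animals could not be tested with 1 array per group.

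The array that stood apart was MF. It was the lowest of the 4 arrays for 41 of the 75 genes (54.7%), against 33.8% of genes of the same brightness and 34.2% of all genes. CF was the lowest for 8, MM for 10 and CM for 16. Set against the microsomic male, MM vs MF gave a median of 0.40 (same brightness 0.08), with 29 genes more than 1.5-fold higher in MM (38.7%), against 28.9% of all genes, and 8 lower, against 20.5%. Of genes of the same brightness, 24.6% were higher and 20.4% lower. Under median centring the MM vs MF median was 0.12, with 12 genes higher and 13 lower. The 2 control arrays differed little, since CM vs CF had a median of -0.08 (same brightness -0.09). In it 3 genes were higher (4%, all genes 27.1%, same brightness 11.3%) and 11 lower (14.7%, all genes 19.7%, same brightness 17.9%). Under median centring, however, which moved all genes to -0.40, the CM vs CF median was -0.50. These comparisons share arrays, so MF enters both of those in which it is low. MF vs CM, which crosses the sexes, had a median of -0.18, and MM vs CF, which leaves MF out, 0.062.

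**Figure D1:**
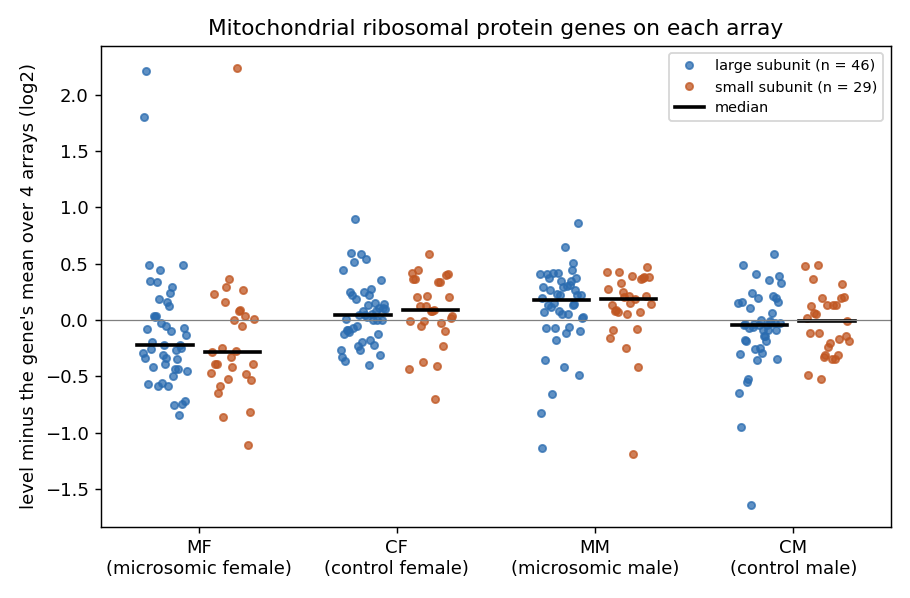
Level of each mitochondrial ribosomal protein gene on each array minus the mean of that gene over the 4 arrays (log2), with 1 point per gene, large subunit genes on the left (n = 46) and small subunit genes on the right (n = 29) of each array, and a bar at the median. Both bars lie lowest on MF, the array that was lowest for 41 of 75 genes, and 3 genes stand far above the others there.

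Genes of other tissues also differed between these arrays. All 8 hepatocyte markers, such as albumin, were well above background on every array, with medians between 9.01 and 9.51. The list of 6 heart muscle markers had a median level of 5.17 on CF, -4.00 on MF, -3.27 on MM and -1.01 on CM. The ventricular light chain gene Myl2 read 5.76 on CF and -4.63 on MF, while Myl7 hardly differed, at -2.05 and -1.97. The 5 intestinal markers had a median of 2.20 on MF, -2.22 on CF, -0.42 on MM and -1.60 on CM. The brush border gene Vil1 was at 0.76 on MF and -3.63 on CF, but Apoa4 was highest on MM, at 6.10 against 4.81 on MF. The 8 granulocyte and macrophage markers had a median of 7.37 on MF, 5.91 on CF, 5.83 on MM and 5.77 on CM. Among them the neutrophil elastase gene Elane was at 7.61 on MF and between 4.61 and 5.67 on the others. Camp went the other way, at 7.31 on MF and 7.69 on CF, and S100a8 was highest on CM, at 8.02. The part of these cells in the MF vs CF result was not tested. In whole liver, fewer cells of a type and less RNA per cell cannot be told apart.

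Grouped by name, the 2 subunits had medians of the same sign in each sex. In MF vs CF the median was -0.31 for the 46 Mrpl genes and -0.37 for the 29 Mrps genes, and in MM vs CM 0.12 and 0.18. More than 1.5-fold lower in MF were 9 of the Mrpl genes (19.6%) and 10 of the Mrps genes (34.5%), against 21.2% of all genes, and 4 and 1 were higher, against 19.9%. Genes of the same brightness had 18.9% lower and 18.2% higher. Names and location differ for 3 genes, since the products of Mrps18a and Mrps30 sit in the large subunit and that of Mrps36 in another complex. With the first 2 counted in the large subunit and Mrps36 left out, the medians in MF vs CF were -0.31 (n = 48) and -0.38 (n = 26). The small subunit genes numbered up to 21, most of which have bacterial counterparts, had a median of -0.44 (n = 16), and those numbered above 21 one of -0.36 (n = 13). For the large subunit the values were -0.29 up to number 36 (n = 27) and -0.36 above it (n = 19). The gap between the subunits by name in MF vs CF was 0.06, and no order is drawn from it.

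In the large subunit, the core proteins lie next to the ribosomal RNA and the catalytic centre. Mrpl15, one of them, had levels of 3.54 on MF, 4.56 on CF, 4.33 on MM and 3.41 on CM. MF lay 2.02-fold below CF while MM lay 1.90-fold above CM, so that the arrays MF and CM were the low ones. Its second probe gave -0.58 and 0.38. Mrpl3, in which mutations cause a mitochondrial cardiomyopathy in humans, read 2.70 on MF, 3.48 on CF, 3.23 on MM and 2.73 on CM, a pattern of the same shape, with log2 differences of -0.78 and 0.50. Mrpl16 stood at 3.20 on MF, 3.39 on CF, 3.44 on MM and 2.65 on CM. Here CM alone was low, and MM exceeded it 1.73-fold. All 5 core genes were lower on CM than on CF, 4 of them more than 1.5-fold, against 19.7% of all genes. For Mrpl4 the size rests on its brightest probe, since its second probe read 2.11 on CM and 2.44 on CF, within 1.5-fold. The 5 are a chosen group, and no result about the core is read from the count.

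Mrpl2 and Mrpl4, also core proteins, went against the rest. Mrpl2 read 8.03 on MF, 5.90 on CF, 5.40 on MM and 5.57 on CM, and Mrpl4 7.89, 5.57, 4.56 and 4.74 in the same order. MF was the high array for both, 4.38-fold and 5.02-fold above CF. In the small subunit Mrps23, a protein without a bacterial counterpart, read 6.67 on MF, 3.73 on CF, 3.25 on MM and 4.09 on CM, a 7.68-fold excess of MF over CF and a 1.79-fold deficit of MM against CM. No other gene of the set exceeded CF on MF by more than 1.59-fold.

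These 3 values come from particular probes, and stretches of them are shown because a second probe of Mrpl4 and of Mrps23 gave another result. Mrpl2 had no second probe to compare. All 3 of the bright probes contain AATAAA, the usual polyadenylation signal near the 3′ end of an mRNA, in capitals below. At most 30 of the 60 bases of each probe are given, with the position of the whole probe in build mm9, as annotated on the array.
Mrpl2 probe (chr17:46787021-46787080, plus strand): gccctggactctAATAAAatgtctcttgtt
Mrpl4 brightest probe (chr9:20813220-20813279, plus strand): tgtcacattaaaAATAAAccctatttttca
Mrpl4 second probe (chr9:20812990-20813049, plus strand): ggaggacaagctactctggcaggactcaag
Mrps23 brightest probe (chr11:88024940-88024999, plus strand): gtgttgtgttacaccaAATAAAtgcgatat
Mrps23 second probe (chr11:88018797-88018856, plus strand): gccaaagctgacatccaggacatcttttac

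The second probe of Mrpl4 read 2.50 on MF, 2.44 on CF, 2.34 on MM and 2.11 on CM, so the 4 arrays lay close together there and MF vs CF was 0.07. The second probe of Mrps23 read 1.27 on MF, 2.18 on CF, 2.02 on MM and 2.35 on CM, which puts MF lowest, by -0.91 against CF. Mrpl2 had 1 probe. Of the 75 genes, 20 had AATAAA in the probe, and their median in MF vs CF was -0.09, compared with -0.37 for the 55 without it. For all genes the medians were -0.01 and -0.09. Bright genes in general read higher on MF, with a median of 0.53 over the 1604 genes above a level of 5. The part of probe position and brightness in the 3 values was not tested. Without the probes that contain AATAAA, 1 gene was higher in MF vs CF.

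**Figure D2:**
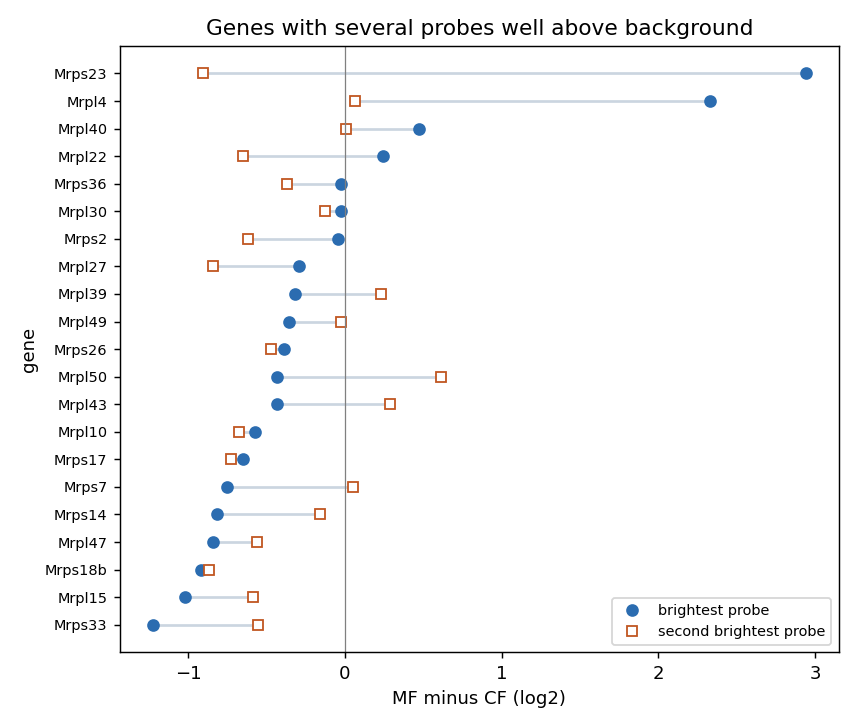
Log2 difference MF minus CF for the 21 genes with several measured probes, with the brightest probe as a filled circle and the second brightest as an open square. Mrps23 and Mrpl4 have the widest gaps between probes, and 15 of the 21 second probes lie below 0.

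Across the 21 genes with several measured probes, all probes of a gene had the same direction in 15 genes for MF vs CF and in 10 genes for MM vs CM. The second brightest probes, which the gene values do not use, had a median of -0.47 in MF vs CF, 15 of 21 negative, and of 0.11 in MM vs CM. The median gap between probes of a gene was 0.55 and 0.41 log2. Differences of single genes below that size are within the disagreement of probes.

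For 3 genes of the set a probe was printed 10 times on each array, which gives the spread within an array. Mrpl34 read 2.44 ± 0.25 on MF, 2.82 ± 0.17 on CF, 3.08 ± 0.14 on MM and 2.78 ± 0.19 on CM (SD over 10 spots). Mrps35 read 1.82 ± 0.15 on MF, 2.22 ± 0.40 on CF, 2.59 ± 0.14 on MM and 2.20 ± 0.18 on CM. Mrpl50 read 2.35 ± 0.26 on MF, 2.78 ± 0.41 on CF, 3.95 ± 0.25 on MM and 3.29 ± 0.33 on CM. By these probes MF was the lowest and MM the highest array for all 3. The second probe of Mrpl50 read 3.06 on MF, 2.45 on CF, 3.95 on MM and 2.56 on CM, so that CF was lowest there and MF vs CF was 0.61 against -0.43 for the replicated probe. These SDs describe spots of 1 hybridization and not animals.

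The stalk recruits the translation factors. Mrpl12, which also binds the mitochondrial RNA polymerase, read 5.28 on MF, 4.84 on CF, 4.86 on MM and 4.75 on CM, so that MF was its highest array, by 0.44 over CF. Mrpl10, its anchor, read 1.49 on MF, 2.06 on CF, 2.12 on MM and 2.54 on CM, with differences of -0.57 and -0.42, although its second probe was positive in MM vs CM. Mrpl11, the other stalk gene grouped here, differed by 0.58 and -0.31. The 3 stalk genes had medians of 0.44 in MF vs CF and -0.31 in MM vs CM, opposite in sign to the set as a whole. Mrpl10 in females and Mrpl12 in males (0.11) went with the set, however. A median of 3 is the value of a single gene, so no pattern of the stalk is read from it.

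Around the exit tunnel, where the new chain leaves and meets the inner membrane, the median differences were small. The 7 genes grouped here had a median of -0.04 in MF vs CF and 0.19 in MM vs CM. Single genes ran from -0.50 (Mrpl45) to 0.67 (Mrpl23) in MF vs CF. The probes of Mrpl22 disagreed there, at 0.24 for the brightest and -0.65 for the second. Mrpl23 read 4.88 on MF, 4.21 on CF, 4.26 on MM and 4.40 on CM so that MF exceeded CF 1.59-fold. Mrpl44, in which mutations cause cardiomyopathy in humans, read 1.39 on MF, 1.43 on CF, 2.16 on MM and 1.62 on CM, with MM highest. In the central protuberance, Mrpl18 read 2.68 on MF, 3.17 on CF, 2.0 on MM and 2.75 on CM, lower in both microsomic arrays, 1.69-fold in males. Mrpl38 was higher in both, at 2.35 on MF, 1.72 on CF, 2.42 on MM and 1.98 on CM, with differences of 0.63 and 0.44.

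The widest difference in males belonged to Mrpl19, a large subunit protein, which read 1.64 on MF, 2.20 on CF, 1.72 on MM and -0.33 on CM. CM alone was low, 4.15-fold below MM, and the gene had 1 probe. Mrpl36, which has a bacterial counterpart, read 3.18 on MF, 3.80 on CF, 4.41 on MM and 3.68 on CM, with MF lowest and MM highest. Mrpl41, also described in apoptosis, read 2.86 on MF, 3.63 on CF, 3.66 on MM and 3.26 on CM, a difference of -0.77 in females. It became 0.13 when the probes were averaged, but the other probe was not well above background on every array (-5.40 on MF, -6.43 on CF). Mrpl47 read 1.23 on MF, 2.07 on CF, 2.35 on MM and 2.66 on CM, lower in both microsomic arrays by its brightest probe. Its other probes were also negative in females (-0.56 and -1.59) but positive in males (0.75 and 0.85).

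In the small subunit, the genes grouped here for the head were Mrps7, Mrps9, Mrps10 and Mrps14. By their brightest probes all 4 were more than 1.5-fold lower in MF than in CF, against 21.2% of all genes. Their median was -0.79, and in MM vs CM -0.14. The group does not hold every protein of the head, and left out Mrps24 (0.49 in MF vs CF), Mrps35 (-0.40), Mrps31 and Mrps33. The second probes of Mrps7 and Mrps14 gave 0.05 and -0.16 in MF vs CF, within 1.5-fold, and Mrps9 and Mrps10 had no second measured probe. The role groups were drawn up with earlier results of these data known, and 4 genes allow no test. Mrps31 read 2.19 on MF and 3.70, 3.68 and 3.62 on CF, MM and CM. MF was apart from the other 3, which lay close together, and was 2.85-fold below CF. Mrps33 had the same shape, at 2.92 on MF and 4.14, 3.95 and 3.94 on CF, MM and CM, 2.34-fold below CF, and its second probe also was negative, at -0.55.

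Mrps11 lies head to head with Mrpl46 on chromosome 7, with 42 bases between their starts. Mrps11 read 2.11 on MF, 3.14 on CF, 2.78 on MM and 2.75 on CM, and Mrpl46 1.79, 2.31, 2.37 and 2.43 in the same order. Both were lowest on MF and differed little between males, at 0.03 and -0.06. Of the 67 genes in the promoter table, 25 had a start on the opposite strand within 1000 bases upstream. In 22 distinct pairs both genes were measured, and 12 of these were lower together in MF vs CF, 2 higher together and 8 divided. Negative values were common on both sides, with 57 of the 75 members and 10724 of all 19303 genes below 0. No joint change of such pairs is read from the count. Mrps12, whose protein is part of the decoding centre, read 3.45 on MF, 3.82 on CF, 3.77 on MM and 3.75 on CM, and its neighbour Sars2, a mitochondrial seryl-tRNA synthetase 147 bases away, differed by -0.76 in MF vs CF and -0.14 in MM vs CM.

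The 3 genes of the S18 family encode alternative forms of 1 bacterial protein. Mrps18b read 3.76 on MF, 4.68 on CF, 4.15 on MM and 3.78 on CM, Mrps18c 3.15, 3.65, 3.78 and 3.70, and Mrps18a, whose product sits in the large subunit, 2.83, 2.68, 2.22 and 2.14. They did not share a pattern, since Mrps18b and Mrps18c were lower in MF than in CF (-0.92 and -0.50) and Mrps18a was 0.15 higher. Both probes of Mrps18b gave nearly the same value, -0.92 and -0.87. Mrps30, another Mrps name found in the large subunit, read 2.20 on MF, 2.59 on CF, 3.06 on MM and 2.88 on CM.

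Several small subunit genes are known for human mitochondrial disease. Mrps16 read 3.72 on MF, 3.43 on CF, 3.68 on MM and 2.91 on CM, with MM 1.71-fold above CM. Mrps22 read 2.38 on MF, 2.74 on CF, 3.04 on MM and 2.45 on CM, and Mrps34 2.93, 3.66, 3.93 and 3.31. For Mrps34 the fold was 1.66 downward in females and 1.54 upward in males, the latter turning to a log2 difference of -0.81 with normexp and quantile normalization, and Mrps22 had the same signs with less in females. Mrps26 was lower in both microsomic arrays (-0.39 and -0.55), its second probe in females only. Mrps36, now known as a part of the 2-oxoglutarate dehydrogenase complex, read 2.51 on MF, 2.54 on CF, 2.65 on MM and 2.32 on CM.

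Lower in females and higher in males was the most frequent combination, found for 42 of 75 genes (56%), against 32.0% of genes of the same brightness and 27.8% of all genes. No gene passed 1.5-fold in the same direction in both sexes, against 7.37% of all genes and 91 of the 1811 genes of the same brightness. Another 4 passed it in opposite directions (all genes 10%, same brightness 109 of 1811): Mrpl15, Mrpl36 and Mrps34, lower in MF and higher in MM, and Mrps23, the reverse.

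**Figure D3:**
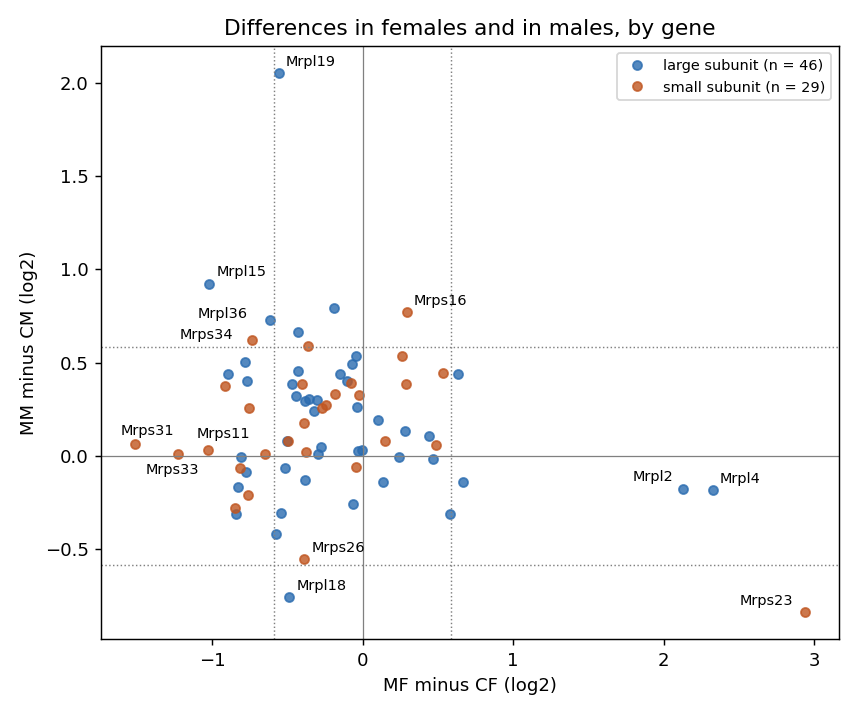
Log2 difference MF minus CF (horizontal) against MM minus CM (vertical) for the 75 genes, coloured by subunit, with dotted lines at 1.5-fold. Most points lie in the upper left field, which holds 42 of 75, and Mrps23, Mrpl4 and Mrpl2 lie apart on the right.

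The limma fit over the 4 arrays, with microsomic or control and sex as terms and 1 residual degree of freedom, called no gene of the set and none of the 19303 genes (0%) for microsomic vs control. At an unadjusted p under 0.05 it named 0 of the 75 and 4.42% of all genes. The smallest p of the set was that of Mrpl4, with a log2 difference of 1.07 ± 0.62 (SE) and an adjusted p of 0.995 in limma. For male vs female 0% of all genes were called, and 9.36% had an unadjusted p under 0.05, among them Mrpl2 and Mrpl4. Mrpl4 was lower in males by the widest margin of the set in limma, at -2.08 ± 0.62 (SE), with an unadjusted p of 0.0109 and an adjusted p of 0.413. Mrpl2 and Mrpl4 are the genes whose bright probes stood out on MF. A fit with 1 residual degree of freedom takes its spread mainly from other genes.

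Genes that act with the mitochondrial ribosome were compared as lists. In MF vs CF, 17 of the 20 genes for ribosome assembly and rRNA modification were negative, with a median of -0.56 and 9 more than 1.5-fold lower (45%), against 21.2% of all genes. In MM vs CM their median was 0.02, and -0.043 with quantile normalization. The assembly list was the only one of the 8 whose MF vs CF median kept its sign under all 9 alternatives. Gtpbp10, a GTPase of large subunit assembly, differed by -0.88 and -0.39, and Rnmtl1, an rRNA methyltransferase, by -0.83 and -0.33. Tfb1m, which dimethylates the small subunit RNA, differed by 0.27 and 0.88, and Mterfd2, a cofactor of rRNA methylation, by -0.34 and 0.97.

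The 14 translation factors had medians of -0.35 in females and 0.37 in males. Mrrf, the ribosome recycling factor, differed by -0.92 and -0.43, and Mtfmt, which formylates the initiator tRNA, by -0.17 and -0.57. Taco1, an activator of COX1 translation, was higher by 0.28 and 1.36, and the elongation factor gene Tsfm by 0.07 and 0.72. The 16 mitochondrial aminoacyl-tRNA synthetases had medians of -0.11 and 0.09, from Rars2 (-1.08 and 0.11) and Yars2 (-0.98 and 0.06) to Aars2 (-0.12 and 1.12) and Fars2 (0.91 and 0.86). The 8 genes of mitochondrial DNA replication and transcription had medians of -0.18 and 0.34. The female median was 0.22 without scaling and the male one -0.53 with normexp and quantile normalization. Among them were the transcription factor Tfb2m at -1.43 and 0.43, Mterf at -1.04 and 0.26, Tfam at -0.17 and 0.66 and the polymerase Polg at 0.13 and 0.43.

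Whether other lists differed from the mitochondrial ribosome in females depended on the scaling. The 75 nuclear subunits of oxidative phosphorylation had medians of 0.08 in MF vs CF and 0.25 in MM vs CM, with Atp5g2 at 2.40 and 0.32, Atp5k at 0.57 and 1.46, and the muscle forms Cox6a2 (-5.89 and -0.82) and Cox7a1 (-1.28 and -0.78) lowest. Their MF vs CF median was -0.42 with quantile normalization, close to the -0.40 of the mitochondrial ribosomal proteins there, and -0.56 with normexp and quantile normalization, below their -0.44. The 79 cytoplasmic ribosomal proteins had medians of 0.53 and -0.15, and 34 were more than 1.5-fold higher in MF (43.0%), against 19.9% of all genes. Both directions turned with the processing. The female median was -0.22 with quantile normalization, -0.16 with normexp and quantile normalization and 0.078 with the intensity trend removed, and the male one ran from -0.15 to 0.41. The list was led by Rpl24 (2.47 and -0.18) and Rps7 (1.97 and 0.08), while Rpl39 (0.30 and -1.14) and Rpl12 (0.07 and -0.73) were lowest. These probes are bright, and bright genes read higher on MF under the 75th percentile scaling. The part of brightness in the values of the cytoplasmic ribosomal proteins was not tested. The 7 mitoribosome proteins with other names had medians of -0.08 and 0.07, the former between -0.38 and 0.32 under the alternatives, with Aurkaip1 (1.76 and -0.24), Dap3 (-0.08 and 0.28), Gadd45gip1 (0.28 and -0.78) and Ict1 (-0.58 and 0.07).

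Of 11 nuclear regulators of mitochondrial genes, with medians of 0.02 (between -0.42 and 0.42 under the alternatives) and 0.08, Nrf1, which binds the NRF-1 letters, read 3.14 on MF, 1.60 on CF, 1.52 on MM and 1.44 on CM. Gabpa, the ETS factor subunit, read 0.82 on MF, 1.45 on CF, 1.81 on MM and 2.12 on CM. Their order over the arrays was thus not the same. Myc differed by 1.63 and 0.11, and Esrra, the receptor ERR alpha, by -0.42 and -1.17. The 11 mitochondrially encoded proteins on the array, a list drawn up after the files were seen, had medians of 0.01 and -0.39, and part of their probes are annotated to copies in the nuclear genome.

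**Figure D4:**
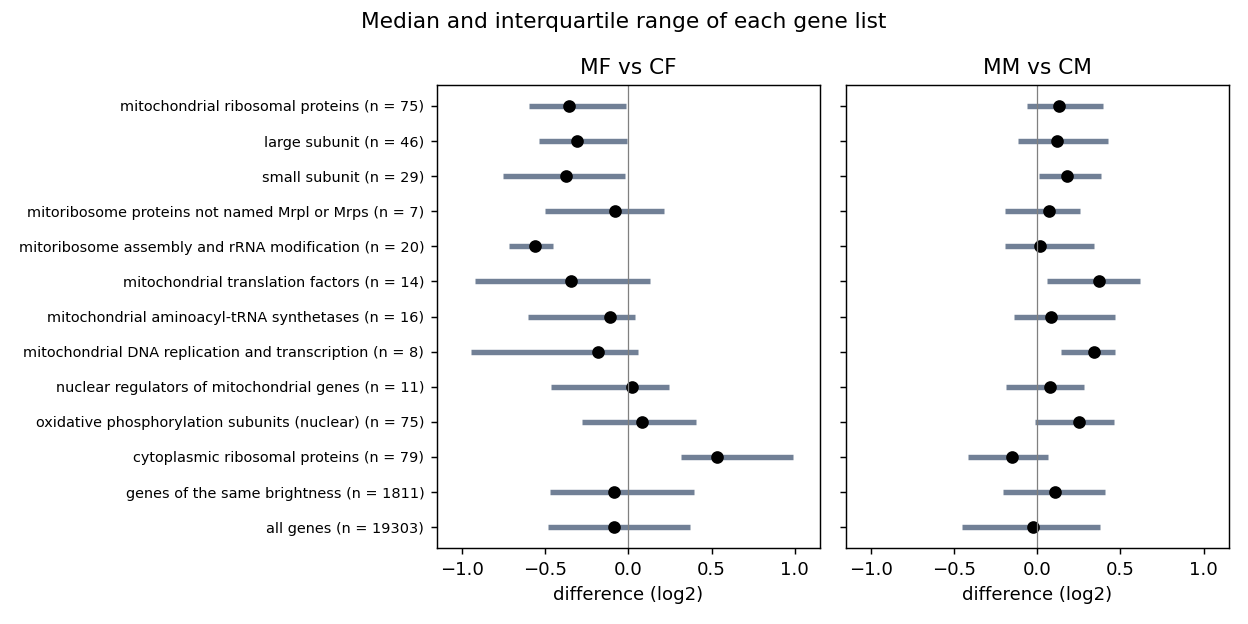
Median (point) and interquartile range (bar) of the log2 difference of each gene list in MF vs CF (left) and MM vs CM (right), with the number of genes measured on every array. In MF vs CF the mitochondrial ribosomal proteins (-0.36) and the assembly genes (-0.56) lie left of all genes (-0.08) and the cytoplasmic ribosomal proteins (0.53) right of them, the last turning to -0.22 with quantile normalization.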

How the data were processed

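Liver RNA was labelled with Cy3 and hybridized by the authors to a 1-colour Agilent mouse array, and scans were quantified with Agilent Feature Extraction 10.7.3.1, per the file headers. The authors deposited for each spot a linear intensity, background-subtracted and detrended by that software, with no scaling between arrays, and the deposited series table equals it. Its log2 was taken, and the 75th percentile over all non-control spots was subtracted on each array. Outlier-flagged spots (1754 of 59305) were left out, spots of a probe averaged, and the brightest probe kept for each of 35577 genes. A difference was computed where either array of the pair was well above background, a limit standing in for the other, and counted past 1.5-fold. Medians use genes well above background on all 4 arrays. limma 3.58.1 (R 4.3.3) used Benjamini-Hochberg adjustment at 0.05 and was tested on simulated data. The study describes replicate experiments, of which only these 4 arrays were analysed here. Members, lists and rules were chosen with earlier results of these data known. Named genes were those past 1.5-fold alike in both sexes, the 5 most positive and 5 most negative per sex, the 3 brightest and 3 dimmest, those below background, the smallest limma p, and genes of textbook role or disease. From each other list the 2 most positive and 2 most negative mean differences were named. Other genes were named after their values were seen. The number of arrays limits precision. Alternatives were other scalings, background corrections, filters, probe rules and fold thresholds.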

Additional observations from a re-analysis of the deposited data

Results flagged for a closer look

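The mitochondrial ribosomal protein genes had medians of opposite sign in the 2 sexes, -0.36 in MF vs CF and 0.13 in MM vs CM, and the difference between the sexes was not tested, since each sex has 1 array per group. In all, 4 genes passed 1.5-fold in opposite directions. Mrpl15 differed by -1.02 in females and 0.92 in males, Mrpl36 by -0.62 and 0.73, Mrps34 by -0.74 and 0.62, and Mrps23 by 2.94 and -0.84. The second probe of Mrps23 was negative in both, at -0.91 and -0.33.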

How the results depend on the processing

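The median of the mitochondrial ribosomal proteins in MF vs CF stayed negative under every scaling except none, and its gap to genes of the same brightness (-0.27) stayed negative under every alternative that kept MF and CF, between -0.29 and -0.22, was -0.22 with CM in place of CF, and with MM in place of MF was 0.068. The corresponding gap in MM vs MF (0.32) stayed between 0.29 and 0.38. Counts below are of genes past 1.5-fold, higher and lower in the first array. Under median centring they were 8 higher for MF vs CF, 24 and 1 for MM vs CM, 0 and 32 for CM vs CF, and 12 and 13 for MM vs MF, the medians being 0.37 for MM vs CM, -0.50 for CM vs CF and 0.12 for MM vs MF, with 2 genes alike and 7 opposite in both sexes. With normexp background correction and quantile normalization the counts were 10 and 30 for MF vs CF, 21 and 13 for MM vs CM and 24 and 20 for CM vs CF, with 6 genes alike and 14 opposite. The medians there were -0.089 for MM vs CM and 0.092 for CM vs CF, the gaps to genes of the same brightness -0.083 and 0.16, the large minus small subunit value in MM vs CM 0.064, Mrps22 in MM vs CM -0.089 and Mrps34 -0.81. Without scaling the counts were 15 and 4 for MF vs CF, 48 and 0 for MM vs CM, and 1 higher for CM vs CF, with 8 alike in both sexes, and the medians 0.046, 0.69 and -0.19, as the medians of all genes moved to 0.32, 0.53 and -0.09. At 2-fold the counts were 3 and 4 for MF vs CF, 1 and 0 for MM vs CM, 0 and 2 for CM vs CF, and 8 and 3 for MM vs MF, with 0 opposite in both sexes, since fewer differences reach this size. Quantile normalization gave 5 higher for MM vs CM, 7 higher for CM vs CF and a median of 0.51 for MM vs MF. With the intensity trend removed, 5 were higher for MM vs CM and 7 for CM vs CF, whose median was 0.00568. Averaging the probes of a gene gave 1 lower for MM vs CM, 1 higher for CM vs CF, a large minus small value of 0.18 in MF vs CF, and 0.13 for Mrpl41 in MF vs CF. The second probe of Mrpl41 was not well above background on every array. With the GC trend removed the median of CM vs CF was -0.19.

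Alternatives chosen after seeing the data were these. MF vs CM gave 8 higher and a median of -0.18. MM vs CF gave 11 higher and 5 lower, a median of 0.062 and a large minus small value of -0.033. Without the probes containing AATAAA, 1 gene was higher in MF vs CF and 1 lower in MM vs CM, the median of MM vs CM was 0.24 and its gap to genes of the same brightness 0.14, and the large minus small values were -0.018 in females and 0.17 in males. With Mrps18a and Mrps30 counted in the large subunit and Mrps36 left out, the large minus small values kept their signs. The cause of these shifts was not tested. limma called 0 genes of the set for either term under every alternative. Over all genes its calls for microsomic vs control went from 0 to 10 without scaling, and those for sex from 0 to 176 without scaling, 170 under median centring, 61 with an intensity trend and 54 with normexp and quantile normalization. Of 528 recomputed values of named genes, 399 kept their direction and side of 1.5-fold. No paired analysis was possible because each group has 1 array and the labels carry no replicate numbers, and leaving out an array leaves no residual degrees of freedom. Signal over background limits Mrpl21 only.

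Medians of the other lists also changed sign. Without scaling the MF vs CF medians were 0.055 for translation factors, 0.22 for DNA replication and transcription, 0.29 for aminoacyl-tRNA synthetases and 0.32 for mitoribosome proteins with other names, and the MM vs CM median of cytoplasmic ribosomal proteins was 0.41. With quantile normalization the MF vs CF medians were -0.42 for oxidative phosphorylation, -0.22 for cytoplasmic ribosomal proteins and -0.022 for nuclear regulators, and those of MM vs CM -0.019 for regulators, -0.031 for mitoribosome proteins with other names and -0.043 for assembly genes. With normexp and quantile normalization the MF vs CF medians of oxidative phosphorylation, cytoplasmic ribosomal proteins and regulators were -0.56, -0.16 and -0.23, and in MM vs CM cytoplasmic ribosomal proteins stood at 0.15 and DNA replication and transcription at -0.53. With the intensity trend removed oxidative phosphorylation was -0.21 in MF vs CF, and in MM vs CM mitoribosome proteins with other names were -0.012, assembly genes -0.041 and cytoplasmic ribosomal proteins 0.055. Averaging probes gave regulators -0.42 and -0.033 in the 2 sexes, the GC trend -0.015 in males, and median centring 0.014 for mitoribosome proteins with other names in females and 0.089 for cytoplasmic ribosomal proteins in males.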
